A study of Homo sapiens with 33 samples.

Results

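The genes described here are the 5 NF-kB subunits (NFKB1, NFKB2, REL, RELA and RELB) and 5 genes that NF-kB itself switches on or that act beside it (NFKBIA, NFKBIE, TNFAIP3, BIRC2 and BIRC3). They were taken by symbol from the gene tables, and all 10 were present among 29744 genes. RNA was sequenced from 11 human high-grade serous ovarian carcinoma (HGSOC) cell lines, 3 libraries each, 33 in all. The platinum-sensitive lines were OVCAR3, OVCAR4, PEA1 and PEO1. The resistant lines OVCAR3 ResA, OVCAR3 ResB, OVCAR4 ResA and OVCAR4 ResB were selected in culture by repeated short pulses of cisplatin at rising dose, with ResA and ResB derived independently, and were not kept in the drug. PEA2 shares its patient of origin with PEA1, and PEO4 and PEO6 share theirs with PEO1. PEA2, PEO4 and PEO6 are the other resistant lines, and the study describes them as clinically platinum-resistant. It adds that PEO4 and PEO6 are thought to come from a shared clone. Each resistant line is therefore a single case within its family. The roles of the lines come from the study's text and not from the sample labels, and not all families were grown in the same medium. Nothing in the labels says that the replicates were separate cultures, so a p-value here measures only the spread between libraries of a line.

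NF-kB is a family of dimeric transcription factors. In resting cells inhibitory IkB proteins hold the dimers in the cytoplasm. Signals from tumour necrosis factor, interleukin-1 or toll-like receptors activate the IKK kinase, which marks IkB for destruction, while a slower non-canonical route through the kinase NIK (MAP3K14) processes p100. Active dimers then induce their own inhibitors, which ends the response, and the same factors drive survival genes and cytokines in many carcinomas.

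The promoters of several members hold the sequence that NF-kB binds. In RefSeq (GRCh38.p14), 8 of the 10 members matched a promoter window, which runs from 250 bases before a transcript start to 50 after it, and these members had 13 windows. The kappaB consensus of 10 bases, searched on both strands, occurred in 7 of the 13 windows and in windows of 6 of the 8 members (NFKB1, NFKB2, REL, NFKBIA, TNFAIP3 and BIRC3). It occurred in 5.91% of all 35116 windows and in windows of 7.09% of all 27305 genes with a window. The members were chosen as NF-kB subunits and feedback targets, so these shares are a description and not a test. No window of RELA or BIRC2 held the consensus. RELB and NFKBIE had no entry. The 250 bases before the start are shown here for 4 members on which the results turn, 5′ to 3′ on the gene's own strand, with the consensus matches in capitals. A match is a description of the letters and not a measured binding site. The REL sequence is chr2:60881324-60881573 (plus strand), that of NFKBIA is chr14:35404750-35404999 (minus strand), that of TNFAIP3 is chr6:137867009-137867258 (plus strand) and that of BIRC3 is chr11:102317234-102317483 (plus strand). The annotated TNFAIP3 gene begins further upstream, at 137866349.
REL: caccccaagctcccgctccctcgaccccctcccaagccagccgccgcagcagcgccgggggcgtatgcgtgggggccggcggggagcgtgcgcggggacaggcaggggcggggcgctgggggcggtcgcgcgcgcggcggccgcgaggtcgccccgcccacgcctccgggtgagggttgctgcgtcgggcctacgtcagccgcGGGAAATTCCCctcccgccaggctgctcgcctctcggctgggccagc
NFKBIA: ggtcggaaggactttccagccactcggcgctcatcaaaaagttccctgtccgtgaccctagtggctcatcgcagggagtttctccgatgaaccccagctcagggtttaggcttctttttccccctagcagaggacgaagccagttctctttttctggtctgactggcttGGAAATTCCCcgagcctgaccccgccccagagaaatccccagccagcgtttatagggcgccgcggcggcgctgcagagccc
TNFAIP3: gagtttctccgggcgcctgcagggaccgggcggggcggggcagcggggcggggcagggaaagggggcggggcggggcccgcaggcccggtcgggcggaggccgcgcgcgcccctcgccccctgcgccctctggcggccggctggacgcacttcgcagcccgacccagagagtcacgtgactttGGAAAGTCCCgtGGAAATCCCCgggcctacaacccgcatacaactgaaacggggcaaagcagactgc
BIRC3: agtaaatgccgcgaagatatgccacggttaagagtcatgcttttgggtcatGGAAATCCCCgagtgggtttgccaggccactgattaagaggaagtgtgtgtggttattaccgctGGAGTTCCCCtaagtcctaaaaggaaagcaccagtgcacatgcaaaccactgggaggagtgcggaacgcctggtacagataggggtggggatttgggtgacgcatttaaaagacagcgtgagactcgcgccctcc
In REL 2 overlapping matches form 1 run, which begins 47 bases before the start. In TNFAIP3 the 2 matches lie 67 and 55 bases before the start, and in BIRC3 they lie 199 and 135 bases before it.

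**Figure D1:**
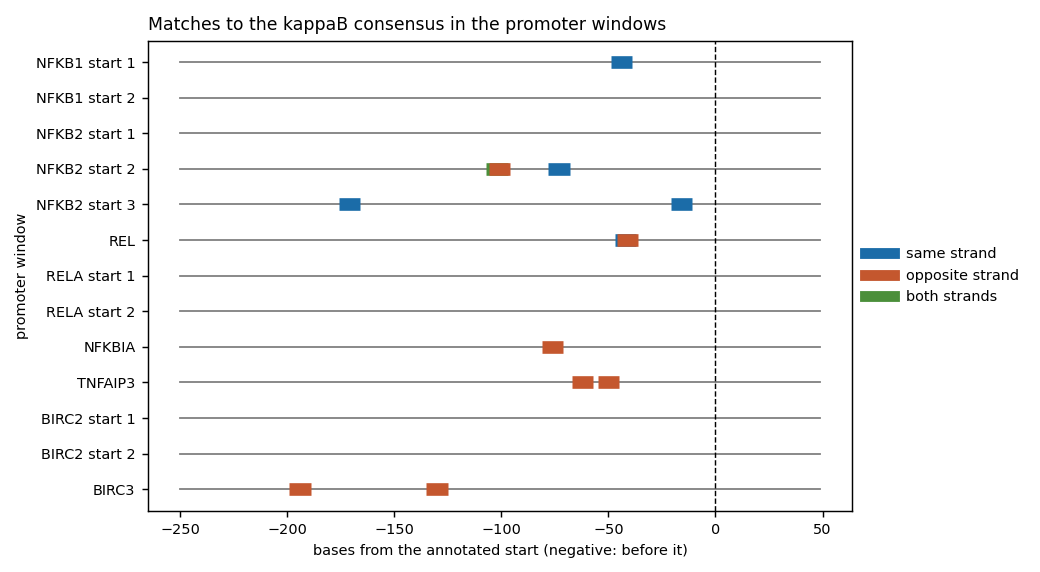
Positions of matches to the kappaB consensus in the 13 promoter windows of 8 members; the x axis is the distance in bases from the annotated start (dashed line) and each grey line is 1 window. Matches are seen in 7 windows, all of them before the start, and none in the RELA or BIRC2 windows.

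BIRC3 and BIRC2 are neighbours on chromosome 11 (102317484 to 102339403 and 102347214 to 102378670) with 7810 bases between them. NFKB1 (chromosome 4), REL (chromosome 2), RELA (chromosome 11) and TNFAIP3 (chromosome 6) overlap annotated non-coding RNAs or a pseudogene, and the counting is not stated to use strand, so their counts may include reads of those genes.

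Library totals ran from 18058985 to 43394009 counts. In all 33 libraries the most similar library belonged to the same line. Mitochondrial ribosomal RNA took 1.12% to 14.8% of counts and was uneven in the OVCAR4 family and in OVCAR3 ResB. It also ran from 2.39% to 7.52% in OVCAR3, from 1.86% to 5.57% in OVCAR3 ResA and from 3.59% to 7.62% in PEA1. Of 10 serous carcinoma markers, all 10 had a mean above 1 TPM (a level corrected for transcript length and library depth) in 8 lines, 9 did in OVCAR4 and 8 in OVCAR4 ResB and in PEA1. PEA1 stood apart, with the 10 markers summing to 407 to 450.1 TPM against 2340 to 8107 in the libraries of the other lines. EPCAM was at 14.0 TPM in PEA1 and 575 in PEA2, while the fibroblast genes COL1A1 (88.4 and 0.879) and PDGFRB (6.55 and 0.013) were higher in PEA1 and the other 4 of 6, COL1A2, COL3A1, DCN and LUM, were at or near 0 in both. The 6 fibroblast genes summed to 69.6 to 116 TPM in PEA1 libraries and 0.675 to 1.17 in PEA2. Of the leukocyte markers, the T cell gene CD3E did not exceed 0.019 TPM and the B cell gene MS4A1 was at 0 in every line, but the pan-leukocyte gene PTPRC (3.303 TPM against 0) and the macrophage genes CD68 (49.9 against 18.7) and CD14 (2.89 against 0.323) were higher in PEA2 than in PEA1. The 8 leukocyte genes summed to 55.2 to 57.8 TPM in PEA2 and 11.01 to 24.2 in PEA1. Of 4 endothelial genes, CDH5 was at 7.02 TPM in PEA2 and 0 in PEA1, and PECAM1 at 6.76 in OVCAR3 ResB and 0.026 in OVCAR3, with sums of 5.68 to 8.78 in PEA2, 0.0217 to 0.121 in PEA1, 3.09 to 14.7 in OVCAR3 ResB and 0.536 to 0.794 in OVCAR3. The part of these marker differences in the PEA2 and OVCAR3 ResB results was not tested. In bulk RNA, a change in the number of cells that express a gene and a change in RNA per cell cannot be told apart.

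Levels between lines are given as normalised counts, which are expected counts divided by a size factor fitted over all 33 libraries. NFKBIA was the most abundant member per length in 7 of the 11 lines, BIRC2 in the 3 OVCAR4 lines and RELA in PEO4, by mean TPM. The spread between lines differed greatly among members. RELA, the p65 subunit of the main dimer, varied 2.55-fold from its lowest line mean (OVCAR4 ResB) to its highest (PEO1). TNFAIP3, which encodes the ubiquitin-editing enzyme A20 that shuts down NF-kB signalling, varied 31.2-fold, and BIRC3, the ubiquitin ligase cIAP2, varied 269-fold. The other 7 members varied between 3.31-fold (NFKBIA) and 7.06-fold (BIRC2).

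**Figure D2:**
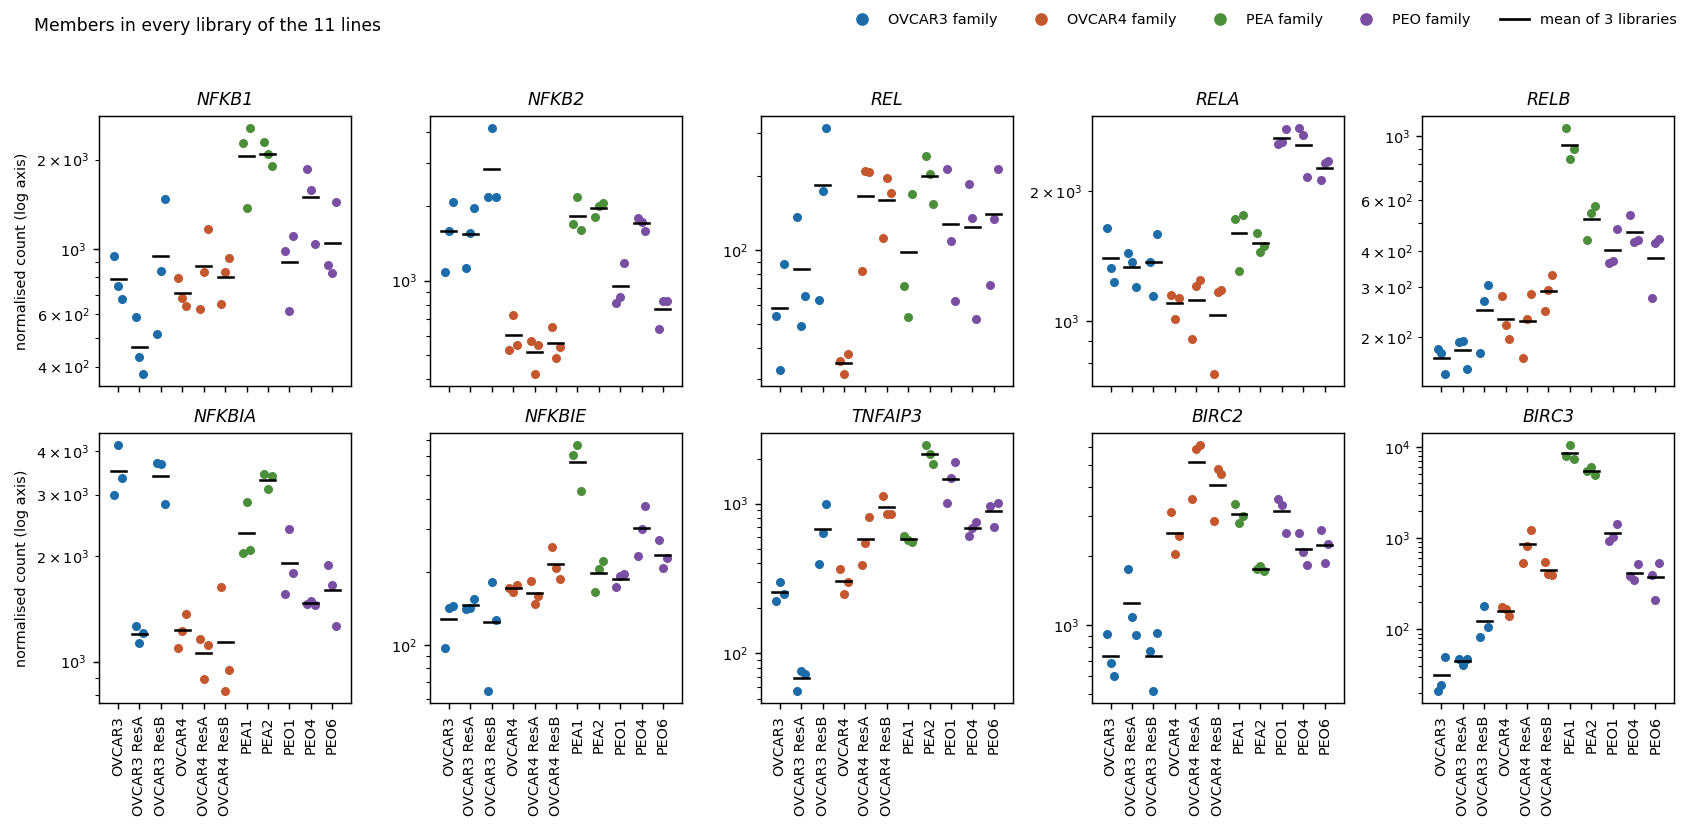
Normalised count (log axis) of each member in each of the 33 libraries, with 1 point per library, colours for the 4 families and a bar for the mean of 3 libraries. The line means of RELA span 2.55-fold, whereas those of BIRC3 run from 31.8 in OVCAR3 to 8542 in PEA1.

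Neighbours in the order of lines mostly overlapped. For REL all 10 neighbouring pairs of lines overlapped, and for BIRC3 only 6 of 10 did. BIRC3 in PEA1 had 7296, 7961 and 10369 normalised counts, and PEA2 had 4859, 5451 and 6028, so both stood above every other line. PEO1 followed with 941, 1023 and 1411, and OVCAR3 was lowest with 21.2, 24.8 and 49.4. The highest and the lowest of the 11 lines, PEA1 and OVCAR3, were both sensitive lines.

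Every resistant line was set against the sensitive member of its family by DESeq2 on 6 libraries, with the replicate number in the model, and a gene was called at a Benjamini-Hochberg adjusted p under 0.05 over all genes tested. The members gave 25 calls in 70 tests, 13 higher and 12 lower in the resistant line, in pairs that called between 7.67% and 47% of all genes. The 7 comparisons share control lines within families, so they are not independent. The median log2 fold change over all genes tested lay between -0.022 and 0.023 in every pair, but on the TPM scale it was 0.45 in OVCAR4 ResA and 0.48 in OVCAR4 ResB.

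**Figure D3:**
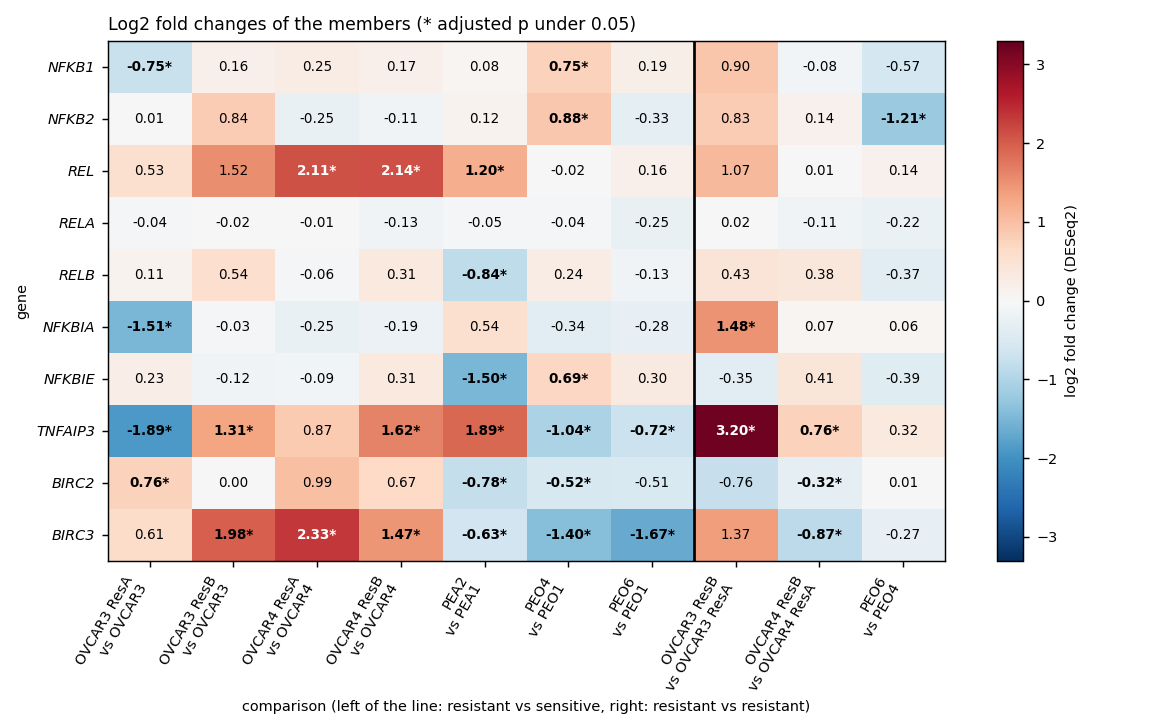
Log2 fold change of the 10 members (rows) in the 7 resistant against sensitive pairs and in 3 comparisons between resistant lines (columns), with an asterisk where the DESeq2 adjusted p was under 0.05. The TNFAIP3 and BIRC3 rows carry calls of both signs (3 higher and 3 lower among the pairs), and the RELA row carries none.

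Among the subunits, RELA was the steadiest and REL moved furthest. RELA was called in 0 of 7 pairs, with log2 fold changes from -0.25 to -0.01. The widest 95% interval of these, in OVCAR4 ResB, ran from -0.80 to 0.55, and the one in OVCAR3 ResA from -0.28 to 0.20. REL encodes c-Rel, a subunit best known from lymphocytes, and it rose in 3 of 7 pairs and fell in none. In OVCAR4 its normalised counts were 35.5, 31.4 and 37.9, against 82.4, 210.5 and 207.4 in ResA and 111.8, 196.8 and 170.6 in ResB. Every resistant library lay above every OVCAR4 library. The log2 fold change was 2.11 (SE 0.53, adjusted p = 0.00176) in ResA and 2.14 (SE 0.48, adjusted p = 0.000176) in ResB. In OVCAR3 ResB the value was 1.52 (SE 0.53) with an adjusted p of 0.0523, and in PEA2 it was 1.20 (SE 0.43, adjusted p = 0.0131) with overlapping libraries. REL was a low-count gene in all lines, with a highest line mean of 200.1 normalised counts. The REL call in OVCAR4 ResA was lost without replicate 2 (adjusted p = 0.333) and without replicate 3 (0.406), and that in OVCAR4 ResB without replicate 2 (0.170) and without replicate 3 (0.142). The PEA2 call was lost without replicate 1 (0.370) and without replicate 2 (0.285). In OVCAR4 ResA the edgeR adjusted p was 0.0831.

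In the OVCAR4 family the mitochondrial rRNA share moved with these values. OVCAR4 libraries had 5.18%, 14.8% and 11.96%, while ResA had 9.23%, 2.02% and 2.09% and ResB had 13.1%, 2.47% and 2.39%. Within ResA and within ResB the library with the highest share had the lowest REL count. Its part in the result was not tested. In OVCAR3 ResB, replicates 1, 2 and 3 had 5.97%, 8.88% and 1.12%, and replicate 3 was the highest of the line for REL (313.4 against 63.0 and 174.4) and for TNFAIP3, which was also not tested. In OVCAR3 and in OVCAR3 ResA the share rose from replicate 1 to 3. In both lines NFKB1, RELA and BIRC2 fell and NFKB2 and NFKBIE rose in that order, and the part of the share in this was not tested.

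**Figure D4:**
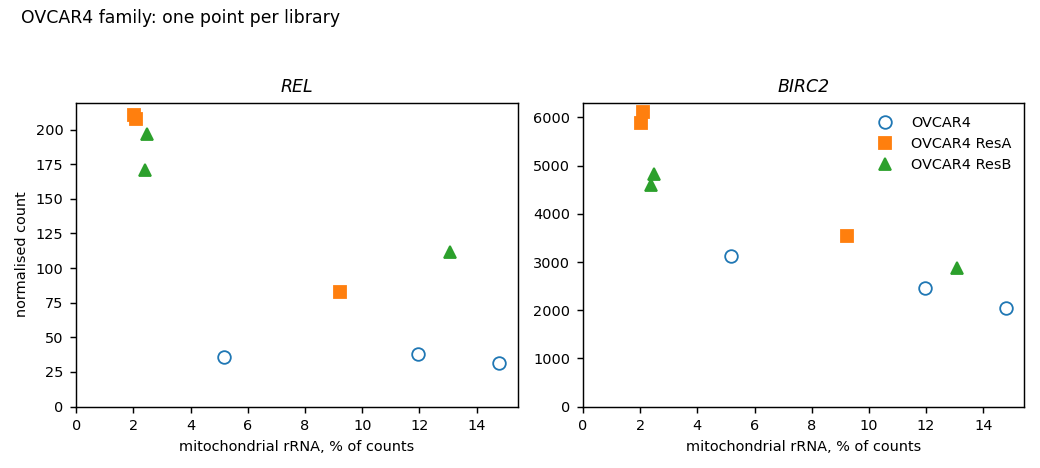
Normalised counts of REL and BIRC2 (y axis) against the mitochondrial rRNA share of counts in percent (x axis) in the 9 libraries of the OVCAR4 family, 1 point per library. The 4 resistant libraries between 2.02% and 2.47% are the highest for both genes, and the resistant libraries at 9.23% and 13.1% are lower.

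NFKB1, whose product is the p105 precursor of p50, fell in OVCAR3 ResA (589.7, 431.5 and 377.9 against 941.6, 747.9 and 677.3 in OVCAR3) with a log2 fold change of -0.75 (SE 0.14, adjusted p = 1.46e-06). Of the alternatives, only 1 fit of all 33 libraries lost this call (0.0659). NFKB1 rose in PEO4 by 0.75 (SE 0.25, adjusted p = 0.00914), where the libraries overlapped and the call was lost without replicate 1 (0.244) or replicate 2 (0.350). NFKB2, the p100 precursor of the non-canonical route, had 1784, 1735 and 1594 in PEO4 against 813, 861 and 1182 in PEO1. This was a rise of 0.88 (SE 0.20, adjusted p = 5.74e-05), and without replicate 1 the adjusted p was 0.0719. In OVCAR3 ResB it had 2180, 4128 and 2178 against 1080, 1585 and 2078 in OVCAR3, with no overlap but no call (0.84, SE 0.35, adjusted p = 0.156). It was called without replicate 3 (1.18, adjusted p = 0.000145) and in 1 fit of all 33 libraries (0.84, adjusted p = 0.00559). It was not called under edgeR (0.267), without the replicate block (0.140), or without replicate 1 (0.620) or 2. RELB, the partner of p52 in that route, fell in PEA2 (437, 542 and 573 against 1065, 835 and 900 in PEA1), with a log2 fold change of -0.84 (SE 0.26, adjusted p = 0.00328). Without replicate 1 its adjusted p was 0.280.

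The inhibitors did not move as a block. NFKBIA encodes IkBa, the inhibitor that NF-kB resynthesises within each response, and it fell sharply in 1 resistant line. OVCAR3 ResA had 1260, 1129 and 1203 against 2988, 4146 and 3352 in OVCAR3, with no overlap, and the log2 fold change was -1.51 (SE 0.13, adjusted p = 2.57e-28), a 2.85-fold lower level. OVCAR3 ResB had 3691, 3665 and 2813, at the level of OVCAR3. In the other 6 pairs NFKBIA was not called. In PEA2 it was near the threshold at 0.54 (SE 0.24, adjusted p = 0.0509), with no overlap with PEA1. It was called higher there without the replicate block (0.0202), without replicate 2 (0.0149) and in 1 fit of all 33 libraries (0.0421), but not under edgeR. In OVCAR4 ResB it was called lower without replicate 1 (-0.53, adjusted p = 0.0177), but not under edgeR. NFKBIE encodes IkBe, a slower inhibitor. It fell in PEA2 (165, 205 and 222 against 604, 664 and 431 in PEA1), by a log2 fold change of -1.50 (SE 0.29, adjusted p = 1.43e-06). It was higher in PEO4 by 0.69 (SE 0.25, adjusted p = 0.017), and this call was lost without replicate 1, 2 or 3 (adjusted p from 0.130 to 0.190).

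TNFAIP3 was called in 6 of the 7 pairs, in 3 higher and in 3 lower. It rose in OVCAR3 ResB (392.7, 640.4 and 989.8 against 223.6, 300.7 and 248.1 in OVCAR3), in OVCAR4 ResB (1129, 850.5 and 849.7 against 364.3, 248.2 and 299.1 in OVCAR4) and in PEA2 (2446, 2151 and 1834 against 608.7, 569.3 and 557.3 in PEA1). In all 3 cases no resistant library overlapped a sensitive one. The log2 fold changes were 1.31 (SE 0.39, adjusted p = 0.0133), 1.62 (SE 0.32, adjusted p = 9.86e-06) and 1.89 (SE 0.23, adjusted p = 1.55e-15). It fell in OVCAR3 ResA, where 56.2, 76.9 and 73.4 normalised counts were a 3.70-fold lower level, with a log2 fold change of -1.89 (SE 0.25, adjusted p = 2.03e-13). It also fell in both PEO lines, with 608, 685 and 759 in PEO4 and 969.5, 698 and 1009 in PEO6 against 1015, 1483 and 1903 in PEO1. The log2 fold changes there were -1.04 (SE 0.19, adjusted p = 7.36e-07) and -0.72 (SE 0.26, adjusted p = 0.018). OVCAR3 ResB lost its call without any 1 replicate (adjusted p of 0.0571, 0.265 and 0.0553 without replicates 1, 2 and 3) and under edgeR (0.087). OVCAR4 ResB lost it without replicate 2 (0.0546) or 3 (0.0577), and PEO6 without replicate 2 (0.302) or 3 (0.167). In OVCAR4 ResA TNFAIP3 was not called, at 0.87 (SE 0.40, adjusted p = 0.158), with no overlap with OVCAR4. It was called there without the replicate block (0.0404), without replicate 1 (1.78e-05) and in 1 fit of all 33 libraries (0.0079), but not under edgeR (0.218).

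BIRC3 was also called in 6 of 7 pairs, in 3 higher and in 3 lower. It was higher in OVCAR3 ResB (82.4, 179 and 107.2 against 21.2, 24.8 and 49.4 in OVCAR3), in OVCAR4 ResA (537.5, 829.7 and 1224 against 175.6, 167.1 and 139.7 in OVCAR4) and in OVCAR4 ResB (552.1, 404.1 and 397). The groups did not overlap in any of these 3, and the log2 fold changes were 1.98 (SE 0.56, adjusted p = 0.00801), 2.33 (SE 0.41, adjusted p = 9.51e-07) and 1.47 (SE 0.35, adjusted p = 0.000408). The gene was lower in PEA2 (-0.63, SE 0.21, adjusted p = 0.00922), in PEO4 (384, 347 and 526 normalised counts) and in PEO6 (392, 207.5 and 537.5). PEO4 gave -1.40 (SE 0.19, adjusted p = 2.36e-12) and PEO6 -1.67 (SE 0.27, adjusted p = 9.89e-09). The OVCAR3 ResB call was lost without replicate 1 (0.163) and replicate 2 (0.619) and under edgeR (0.0749). OVCAR4 ResA lost it under edgeR (0.0536), OVCAR4 ResB without replicate 2 (0.0943) or 3 (0.214), and PEA2 without replicate 1 (0.158) or 2 (0.0597).

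BIRC2, the ubiquitin ligase cIAP1 that degrades NIK, changed less. It rose in OVCAR3 ResA by a log2 fold change of 0.76 (SE 0.13, adjusted p = 1.16e-07), with libraries that overlapped those of OVCAR3 (909 to 1756 against 603 to 914). It fell in PEA2 (1757, 1817 and 1731 against 3374, 2812 and 3002) by a log2 fold change of -0.78 (SE 0.22, adjusted p = 0.00142) and in PEO4 by -0.52 (SE 0.17, adjusted p = 0.00676). The PEA2 call was lost without replicate 1 (0.157) and the PEO4 call without replicate 1 (0.177) or 2 (0.157). In OVCAR4 ResA it had 3546, 5888 and 6105 against 3121, 2044 and 2458, without a call at 0.99 (adjusted p = 0.0607). Without the replicate block the adjusted p was 0.00681, in 1 fit of all 33 libraries 0.000589 and without replicate 1 of both lines 8.47e-13. It was not called under edgeR (0.189), by limma on log2(TPM + 1) (0.181) or without replicate 2 (log2 fold change 0.71, adjusted p = 0.792). Leaving out ResA replicate 1, the library with 9.23% mitochondrial rRNA, raised the DESeq2 log2 fold change to 1.43 with an adjusted p of 2.08e-12. In OVCAR4 ResB BIRC2 was not called, at 0.67 (SE 0.38, adjusted p = 0.234), and its libraries overlapped those of OVCAR4. Leaving out replicate 1 of ResB gave 1.09 with an adjusted p of 3.74e-09, but with every library kept edgeR made no call there. The leave-outs of a single library were added after the data were seen.

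**Figure D5:**
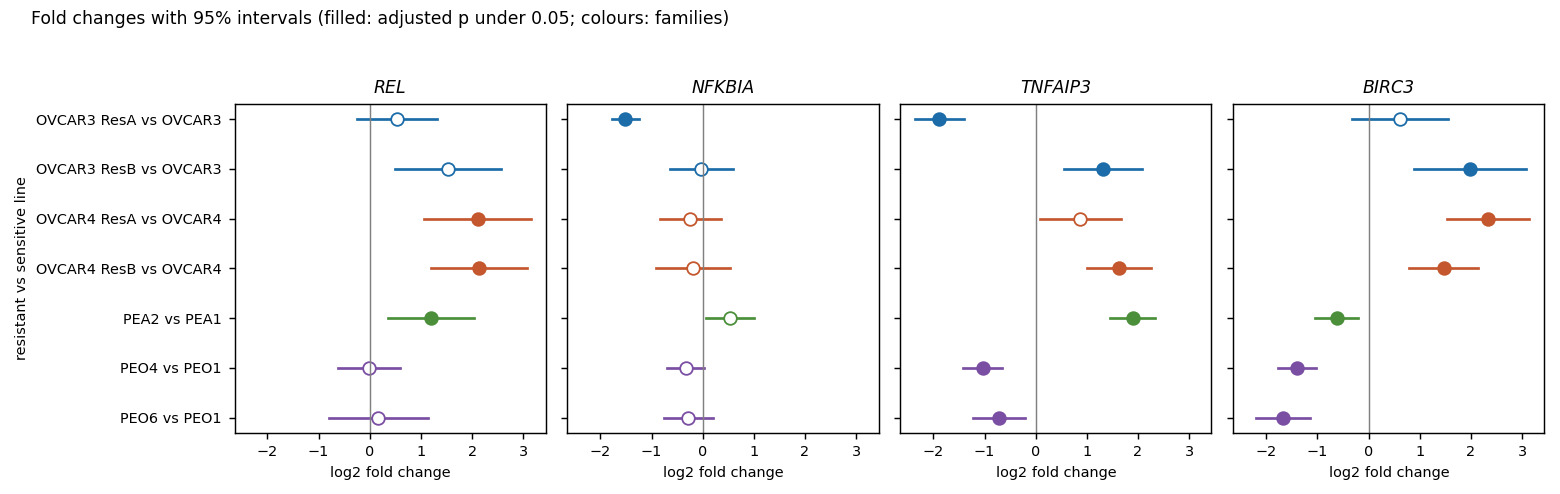
Log2 fold change (x axis) with its 95% interval for REL, NFKBIA, TNFAIP3 and BIRC3 in the 7 pairs (y axis); filled points have an adjusted p under 0.05 and colours mark the families. TNFAIP3 and BIRC3 lie right of 0 in OVCAR3 ResB and both OVCAR4 lines and left of 0 in PEO4 and PEO6, and differ in sign in PEA2, at 1.89 and -0.63, and in OVCAR3 ResA, at -1.89 and an uncalled 0.61.

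Read pair by pair, the count of members called is set beside the share of all genes called. OVCAR3 ResA had 4 of 10 called, 1 higher and 3 lower, when 44.9% of all genes were called (22% higher and 22.9% lower). OVCAR3 ResB had 2 called, both higher, against 7.67% of all genes (4.1% higher and 3.57% lower). OVCAR4 ResA had 2 called, both higher, against 11.9% (6.68% higher and 5.22% lower). OVCAR4 ResB had 3 called, all higher, against 17.9% (9.09% higher and 8.77% lower). PEA2 had 6 called, 2 higher and 4 lower, against 47% (23.3% higher and 23.8% lower). PEO4 had 6 called, 3 in each direction, against 33.3% (16.6% higher and 16.7% lower). PEO6 had 2 called, both lower, against 41.4% (21.2% higher and 20.3% lower), a share below that of all genes. The median log2 fold change of the members was 0.06 in OVCAR3 ResA, 0.35 in OVCAR3 ResB, 0.12 in OVCAR4 ResA, 0.31 in OVCAR4 ResB, 0.012 in PEA2, -0.027 in PEO4 and -0.27 in PEO6.

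Resistant lines of the same family were also compared with each other, and 0 of the 6 calls of members were kept by every alternative. Between OVCAR3 ResB and ResA, 2 members were called, both higher in ResB, against 13.5% of all genes (7.47% higher and 6.04% lower). TNFAIP3 was 9.19-fold higher in ResB, a log2 fold change of 3.20 (SE 0.40, adjusted p = 1.02e-13), and NFKBIA was higher by 1.48 (SE 0.33, adjusted p = 0.000135). NFKBIA lost this call without replicate 2 (0.111). Between OVCAR4 ResB and ResA, 3 members were called, 1 higher and 2 lower in ResB, against 32.8% of all genes (16.2% higher and 16.5% lower). These were TNFAIP3 at 0.76 (SE 0.26, adjusted p = 0.0156), BIRC2 at -0.32 (SE 0.09, adjusted p = 0.00149) and BIRC3 at -0.87 (SE 0.29, adjusted p = 0.0111). All 3 were lost without the replicate block, with adjusted p of 0.207, 0.719 and 0.0892, and without replicate 2 (0.094, 0.220 and 0.151). TNFAIP3 was also lost without replicate 1 (0.147), and BIRC2 (0.0977) and BIRC3 (0.334) without replicate 3. Between PEO6 and PEO4 the 1 called member was NFKB2, lower in PEO6 by a log2 fold change of -1.21 (SE 0.30, adjusted p = 0.000655), against 18.2% of all genes (9.86% higher and 8.33% lower). It was lost without replicate 1 (0.0831) or 2 (0.116).

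Whether resistant lines shared a shift was asked with the counts of each line summed, so that the 11 lines were the units, and with family in the model. DESeq2 called 0 of 10 members, of which 1 (REL) had an unadjusted p under 0.05, and 0.286% of all genes, and edgeR also called 0 members. Of the members, REL came nearest, with a log2 fold change of 1.14 (SE 0.41, adjusted p = 0.392). Without the PEO family it was 1.60 with an adjusted p of 0.0381. The opposite question, whether the change differed among the 7 pairs, was tested directly over all 33 libraries by a likelihood ratio test. It called 8 of the 10 members, all but REL (adjusted p = 0.0694) and RELA (adjusted p = 0.967), when 70.2% of all genes were called.

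The rest of the pathway was followed in 7 lists of kinases and adaptors, inhibitors, the linear ubiquitin ligase, receptors, ligands, secreted or surface targets and intracellular targets. Their genes were called in 53.3% of those tested in OVCAR3 ResA, 23.9% in OVCAR3 ResB, 18.1% in OVCAR4 ResA, 29% in OVCAR4 ResB, 66.7% in PEA2, 43.3% in PEO4 and 50% in PEO6. Of all genes, 44.9%, 7.67%, 11.9%, 17.9%, 47%, 33.3% and 41.4% were called in these pairs, in the same order. In OVCAR3 ResB, 19 were higher and 3 lower of 92 tested (all genes: 4.1% higher and 3.57% lower). In PEA2, 48 were higher and 20 lower of 102 (all genes: 23.3% and 23.8%). PEO6 had 20 higher and 28 lower of 96 (all genes: 21.2% and 20.3%). The list counts below are to be read beside the shares of all genes given above for each pair.

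Secreted and surface targets moved one way in OVCAR3 ResB and were balanced in OVCAR4 ResA, OVCAR4 ResB and PEO4. In OVCAR3 ResB 10 of 15 tested rose and 0 fell, with a median log2 fold change of 1.60. The urokinase gene PLAU led them with 9375 against 1041 normalised counts (log2 fold change 3.17, SE 0.33, adjusted p = 5.21e-19). In PEA2 13 of 18 rose and 4 fell, with a median of 2.26. The neutrophil chemokine CXCL5 had a mean of 32002 in PEA2 and 4.5 in PEA1. In OVCAR3 ResA 3 rose and 6 fell of 14, and the adhesion molecule ICAM1 fell by a log2 fold change of -2.86 (SE 0.31, adjusted p = 8.78e-19). In OVCAR4 ResA 2 rose and 2 fell of 16, and in OVCAR4 ResB 3 rose and 3 fell of 15. In PEO4 5 rose and 5 fell of 17, with the T cell chemokine CCL5 at 1182 against 1.66. In PEO6 3 rose and 6 fell.

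Interleukin-6, a cytokine gene that NF-kB drives, was the only list gene called in the same direction in at least 5 of the 7 pairs, higher in 5 and lower in 0. OVCAR4 had 12.1, 28.1 and 23.5 normalised counts of IL6 against 409.96, 175.7 and 326 in OVCAR4 ResB, a log2 fold change of 3.82 (SE 0.55, adjusted p = 1.98e-10). OVCAR3 ResB (2.03, adjusted p = 0.00424), OVCAR4 ResA (1.93, adjusted p = 0.0242), PEA2 (1.33, adjusted p = 0.000153) and PEO4 (1.85, adjusted p = 0.000401) were also higher. OVCAR3 ResA gave -0.77 (adjusted p = 0.302) and PEO6 -0.04 (adjusted p = 0.975). PEA1 libraries held at least 757 normalised counts of IL6. Counts were low in OVCAR3 (10.2, 51.0 and 43.9) and in PEO1 (12.9, 29.6 and 21.7), as in OVCAR4. The share of all genes called in the same direction in at least 5 of the 7 pairs was not computed. The alternative fits are given for the members and not for IL6.

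Ligands and receptors differed by line. In PEA2 7 of 11 ligands tested rose and 1 fell, with a median log2 fold change of 3.10, or 2.31 with genes at 0 in PEA1 set to a bound from a floor of 3 counts. The interleukin-1 beta gene IL1B had a mean of 6162 in PEA2 and 0.25 in PEA1. In OVCAR3 ResB 4 of 9 ligands rose and 0 fell, and interleukin-18 (IL18) had 1576 against 441. In both OVCAR4 lines lymphotoxin beta (LTB), which acts on the non-canonical route, fell, by -3.94 in ResA (adjusted p = 6.42e-09) and -2.67 in ResB (adjusted p = 0.00125). In OVCAR4 ResA 7 of 16 receptors rose and 0 fell, with IL18R1, a receptor chain for interleukin-18, at 2.33 (SE 0.56). In OVCAR3 ResA 7 of 17 receptors fell and 2 rose, with IL18R1 at -3.14 (SE 0.27).

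Kinases and adaptors followed no single direction. MYD88, the adaptor of toll-like and interleukin-1 receptors, fell in OVCAR3 ResA by -2.22 (SE 0.18, adjusted p = 8.34e-32) and rose in OVCAR3 ResB by 1.18 (SE 0.34, adjusted p = 0.00872). MAP3K14 encodes the NIK kinase, which the BIRC proteins hold low as a protein. Its RNA rose in OVCAR4 ResA by 1.12 (SE 0.38) and in OVCAR4 ResB by 1.48 (SE 0.37), and the protein was not measured here. CARD10, a scaffold protein upstream of IKK, fell in both PEO lines, by a log2 fold change of -1.39 in PEO4 and -1.88 in PEO6. The inhibitor list held 5 higher and 1 lower of 14 tested in OVCAR3 ResA and 2 and 3 of 14 in PEO6, where NFKBIZ, an atypical IkB, rose by 2.12 (SE 0.25). In OVCAR4 ResA the deubiquitinase CYLD rose by 1.30 (SE 0.36).

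The chromosome 11 neighbours of BIRC2 and BIRC3 were counted beside them. In OVCAR3 ResA, where BIRC2 rose, 5 of 7 neighbours tested rose and 1 fell, with a median log2 fold change of 0.59, when 44.9% of all genes were called (22% higher and 22.9% lower), and TMEM123 rose by 0.83. In the other 6 pairs between 0 and 2 neighbours were called in each direction.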

How the data were processed

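RNA was measured by poly(A) RNA-seq in 33 libraries from 11 human cell lines. The authors ran DRAGEN and an nf-core pipeline with salmon on GRCh38, and deposited expected counts (estimated counts per gene, not normalised) and TPM. Whether counting used strand is not given in the sources used here. The members and all gene lists were chosen with earlier results of these data known.

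Expected counts were rounded and fitted in DESeq2 1.42.0 (R 4.3.3), 6 libraries a comparison, with replicate number and line as terms, no filter on low counts and Benjamini-Hochberg adjustment over all genes. Normalised counts used size factors over all 33 libraries. A likelihood ratio test over 33 libraries asked whether the change differed among pairs, and counts summed by line were fitted with family and status. The alternatives were edgeR 4.0.16, limma 3.58.1 on log2(TPM + 1) or log2(TPM + 0.1) with a filter of 1 TPM or none, a low-count filter, no replicate block, 1 fit of all 33 libraries, and fits without a replicate, library or family. The pair fits of DESeq2 and edgeR and the likelihood ratio test were also run on simulated counts. These counts had the same set spread for every gene, not fitted to these libraries, and no replicate effect. They therefore do not show how often the fits err in these data. TPM was used to compare genes and for markers.

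Named genes were the 10 members, list genes called in the same direction in at least 5 of 7 pairs, in each pair the called gene of each list with the largest change where the fit's mean normalised count reached 100, and for each member the 2 genes most correlated with it over 11 lines. Whether equal replicate numbers pair libraries was checked from the correlation of their deviations from line means. All 3 correlations exceeded 0.1 only in OVCAR3 ResA against OVCAR3 (0.22 to 0.64) and OVCAR4 ResB against OVCAR4 ResA (0.45 to 0.63). All 3 were negative in OVCAR4 ResA (-0.34 to -0.06) and OVCAR4 ResB (-0.41 to -0.03) against OVCAR4, and in PEO6 against PEO4 (-0.37 to -0.12). The main model held the replicate number in these comparisons too.

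Promoter windows and positions came from RefSeq (GRCh38.p14). Figures were drawn with matplotlib 3.10.9 (Python 3.11.15).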

Additional observations from a re-analysis of the deposited data

Results flagged for a closer look

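The change between resistant and sensitive line differed among the 7 pairs for 8 of the 10 members, by a DESeq2 likelihood ratio test over all 33 libraries with Benjamini-Hochberg adjustment over all genes, when 70.2% of all genes were called. The adjusted p was 1.59e-37 for TNFAIP3, with 3 pairs called higher and 3 lower. For BIRC3, also called in both directions, it was 2.42e-22. For NFKBIA, called in OVCAR3 ResA alone, it was 1.09e-10. For NFKBIE it was 3.35e-08, for BIRC2 6.65e-07 and for NFKB2 1.28e-06. RELB gave 0.000314, and without replicate 2 of every line 0.101. NFKB1 gave 0.0249, but 0.529 without replicate 2 and 0.0567 by edgeR. Pairs of a family share their sensitive line in this test.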

How the results depend on the processing

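Of 1148 values of members under the alternatives, 1004 stayed on their side of the threshold, 104 lost a call and 40 gained one. The sign was opposite to the reported one in 106 values, all called in neither fit, and 0 called values turned direction. Of the 25 calls in the pairs, 8 were kept by every alternative, and of the 6 calls between resistant lines, 0 were. By edgeR, OVCAR3 ResB and OVCAR4 ResA had 0 members called instead of 2 each. By limma on log2(TPM + 1), log2(TPM + 0.1) and log2(TPM + 1) without filter, OVCAR3 ResB had 0, 0 and 0, OVCAR4 ResA 0, 0 and 0, OVCAR4 ResB 0, 1 and 0 instead of 3, PEO6 1, 1 and 1 instead of 2, OVCAR3 ResB against ResA 1, 1 and 0 instead of 2, and PEO6 against PEO4 0, 0 and 0 instead of 1. OVCAR4 ResB against ResA had 1 by limma on log2(TPM + 1) and 0 without filter instead of 3, and PEO4 had 2 without filter instead of 6. In 1 fit of all 33 libraries OVCAR3 ResB had 4, OVCAR4 ResA 4 and OVCAR3 ResB against ResA 6. With no replicate block, OVCAR4 ResA had 4 members called and OVCAR4 ResB against ResA had 0, and 5 calls were gained and 3 lost in all. Leaving out each replicate in turn gave 0 to 2 in OVCAR3 ResB, 1 to 5 in OVCAR4 ResA, 0 to 5 in OVCAR4 ResB, 2 to 6 in PEA2, 2 to 5 in PEO4, 1 to 2 in PEO6, 1 to 4 in OVCAR3 ResB against ResA, 0 to 2 in OVCAR4 ResB against ResA and 0 to 2 in PEO6 against PEO4. Alternatives chosen after seeing the data, which left out 1 library with a mitochondrial rRNA share unlike the others of its line, gave 5 in OVCAR4 ResA and 5 in OVCAR4 ResB without replicate 1 of the resistant line, and 4 in OVCAR3 ResB against ResA without ResB replicate 3. At line level 1 member was called without the PEO family. Except where a fit holds fewer samples, the cause was not tested. The 3 libraries a line and the low counts of REL limit what could be called.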

Other observations

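The genes whose levels were most like those of a member, by Pearson correlation of line mean log2(TPM + 1) over 11 lines among 14705 genes, are given as a description, since lines of a family share their origin. For RELA these were VPS4B (r = 0.99) and SPRED1 (r = 0.97), for TNFAIP3 LIPA (r = 0.96) and ST3GAL1 (r = 0.93), and for BIRC3 AFAP1L1 and EMP3 (r = 0.95 each). For REL they were CREB1 (r = 0.92) and ZFYVE16 (r = 0.91), and for NFKBIA CLDN6 (r = 0.92) and WFDC3 (r = 0.89). Among the members themselves, NFKB1 and RELB had r = 0.90, NFKB1 and BIRC3 r = 0.87, NFKB2 and NFKBIA r = 0.75, and NFKB2 and BIRC2 r = -0.62.

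Intracellular targets differed by line. IER3, an immediate early stress gene, rose in OVCAR3 ResA by a log2 fold change of 2.02 and in PEO6 by 3.39. DUSP1, a phosphatase of MAP kinases, rose in OVCAR4 ResA by 2.12 and in OVCAR4 ResB by 1.45. CEBPD fell in OVCAR3 ResB by a log2 fold change of -2.12. All 5 had a DESeq2 adjusted p under 0.05. In PEA2 7 of 15 tested genes of this list rose and 1 fell, when 23.3% of all genes were called higher and 23.8% lower.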
